A study of Mus musculus with 4 samples.

Results

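The genes described here make, remove or sense 2 signalling lipids, sphingosine 1-phosphate (S1P) and lysophosphatidic acid (LPA). They were 10 named genes: the S1P receptors S1pr1, S1pr2 and S1pr3, the LPA receptors Lpar1, Lpar4 and Lpar6, the sphingosine kinases Sphk1 and Sphk2, the S1P lyase Sgpl1 and the LPA-forming enzyme gene Enpp2. The group was chosen by the measured rise of S1pr3 in knockout cells, so the knockout against wild-type values of these genes are given as a description and support nothing. A gene was taken as measured when a probe set of the array carried its symbol and no other, which held for 8 of the 10 genes, among 22180 genes in all, with 1 probe set each. The 2 probe sets that carry the symbol of Lpar6 also carry that of Rb1, the gene within which Lpar6 lies, and no listed probe set carried Enpp2, so neither gene was analysed here.

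The arrays held RNA of mouse skeletal stem cells, the precursors of bone, cartilage and stroma in the skeleton, isolated from mice aged 4 to 6 weeks and kept in 3-dimensional collagen gel for 48 h. The 2 wild-type arrays were of genotype Mmp14+/+ and the 2 knockout arrays of genotype Mmp14-/-, without any other treatment named. Mmp14 encodes MT1-MMP, a membrane-anchored protease that cleaves collagen. The labels do not name the strain, the part of Mmp14 deleted, a Cre driver or the number of animals behind an array, so the spread between arrays of a group may be technical. The purpose stated for the comparison was a screen for changes in transcription.

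S1P is made when a sphingosine kinase phosphorylates sphingosine, which comes from ceramide. It leaves the cell through transporters, acts on the S1P receptors at the cell surface, and is broken down for good by the S1P lyase or dephosphorylated by phosphatases. LPA is made outside the cell mainly by autotaxin, the product of Enpp2, and acts on its own receptors, some of which belong to the same family as the S1P receptors while Lpar4 and Lpar6 belong to the purinergic-like family. Through G proteins these receptors act on the cytoskeleton, calcium and cyclic AMP, and in bone S1P is known for its part in the traffic of osteoclast precursors and in signals between osteoclasts and osteoblasts.

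All values are the deposited log2 intensities, for which 1 unit is a doubling, and every difference is knockout minus wild type. Levels of different probe sets are not compared, because probe sets differ in brightness for equal RNA. As a check of the labels, Mmp14 read 8.77 and 8.83 log2 with the gene intact and 5.77 and 5.84 in knockout cells. Of the markers of skeletal stem and stromal cells, 13 of 14 had a mean above 2.34 log2, the median over all probe sets, below which a gene was taken as dim. In that list Pdgfra, Cxcl12, Cd200 and Nt5e rose by 1.77, 1.81, 1.46 and 1.10 log2, and Lepr fell by 2.26 log2. These were the 5 of 13 tested markers called by limma, beside 11.3% of all tested genes. Cd200 lay near 2.34 log2 in wild type, at 2.72 and 2.96, and its knockout arrays read 3.89 and 4.71. Xist, expressed from the inactive X chromosome, read 8.45 and 8.48 log2 in wild type against 9.30 and 9.09 in knockout, higher by 0.73. The Y-linked Eif2s3y read 6.18 and 5.79 log2 in wild type against 5.19 and 5.40 in knockout, a difference of -0.69. Both genes thus read above 2.34 log2 in every array, and both differed between the groups. Any difference in the mix of sexes between the groups cannot be told apart from genotype here. Its part in the values that follow was not tested. In these bulk samples a change in the share of a cell type and a change in RNA per cell cannot be told apart.

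The S1P receptor genes S1pr1 and S1pr3 had higher values in knockout cells and the LPA receptor genes Lpar1 and Lpar4 lower values. S1pr3 was 6.23-fold higher and S1pr1 2.07-fold higher, while Lpar4 was 1.75-fold lower and Lpar1 1.42-fold lower. The difference of the S1P receptor gene S1pr2, 0.32 log2, was the smallest in size of the 5 measured receptor genes. Among the enzymes of S1P, Sphk1 differed by 0.57 log2, Sgpl1 by 0.31 and Sphk2 by -0.28. The median difference of the 8 genes was 0.31 log2, beside -0.0041 over all 12708 genes tested, with 5 genes above 0 and 3 below.

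**Figure D1:**
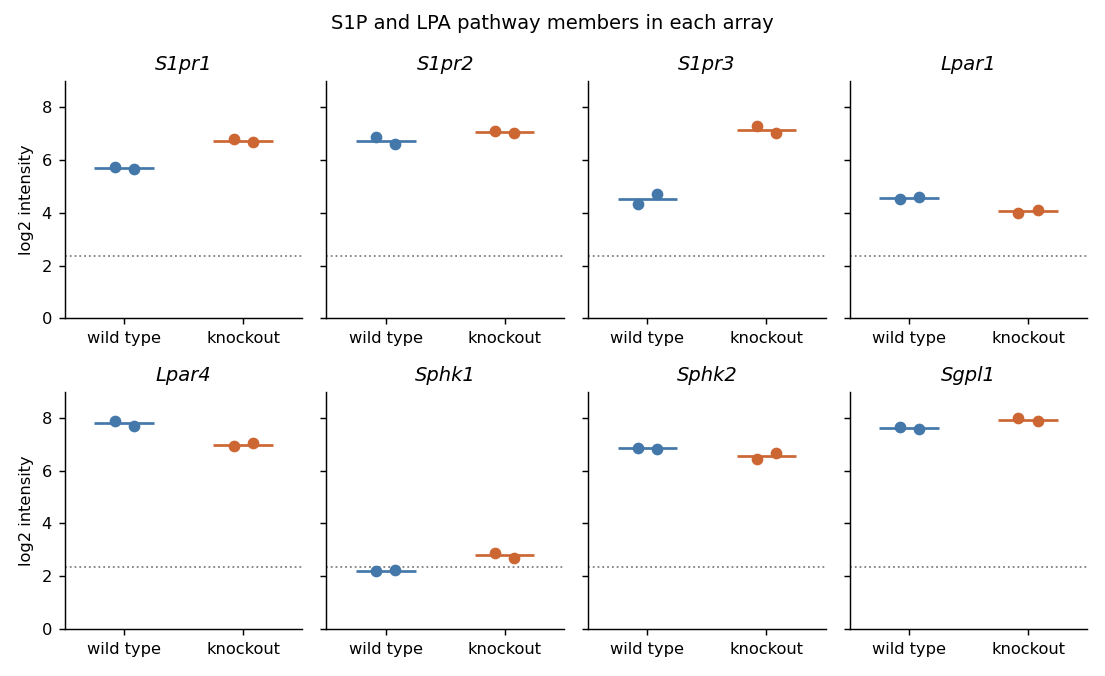
Log2 intensity of the 8 measured genes in each array, 2 wild-type (blue) and 2 knockout (orange); each point is an array, each bar the group mean and the dotted line the threshold for dim genes at 2.34 log2. S1pr3 shows the widest gap, from 4.33 and 4.70 in wild type to 7.28 and 7.03 in knockout, and the wild-type arrays of Sphk1 lie below the line.

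S1pr3 encodes a receptor that couples to several classes of G protein. The wild-type arrays read 4.33 and 4.70 log2, and the knockout arrays 7.28 and 7.03. The groups did not overlap, and the gap between them was several times the spread within either. The mean went from 4.51 ± 0.26 to 7.15 ± 0.18 log2 (SD, n = 2), a difference of 2.64 (SE 0.162). This was the 19th highest difference of the 12708 genes tested. Leaving out each array in turn moved it between 2.46 and 2.82.

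The 250 bases that precede the start of S1pr3 in RefSeq (GRCm38.p6, chr13:51408368-51408617, plus strand) are shown because S1pr3 had the largest difference of the group. Capitals mark the matches to the searched motifs.
S1pr3: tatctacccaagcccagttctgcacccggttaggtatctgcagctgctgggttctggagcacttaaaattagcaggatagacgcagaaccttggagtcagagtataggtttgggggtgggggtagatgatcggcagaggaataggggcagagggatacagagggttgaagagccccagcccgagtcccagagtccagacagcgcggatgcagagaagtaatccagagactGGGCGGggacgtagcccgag
The search covered both strands for the TEAD motif (letters GGAATG), the AP-1 motif (letters TGANTCA), the TCF/LEF motif (letters CTTTGAT), the GC box (letters GGGCGG), the TATA box (letters TATAAA) and the CCAAT box, which is named by its letters. In S1pr3 the only match was a GC box, 20 to 15 bases before the start, a motif found in 32.7% of the 32851 windows of that length in the table. The window held 9 CpG dinucleotides, beside a median of 6 over all windows. The TEAD motif was found in 12.6% of all windows, the AP-1 motif in 6.75% and the TCF/LEF motif in 3.21%.

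S1pr1 encodes the receptor that couples to Gi and activates Rac, best known for the exit of lymphocytes from lymphoid organs and for the stability of vessels. Its signal read 5.72 and 5.67 log2 in wild-type cells, against 6.81 and 6.68 in knockout cells. The arrays of each group lay close together and the groups did not overlap. The means were 5.70 ± 0.04 and 6.74 ± 0.09 log2 (SD, n = 2), which differed by 1.05 (SE 0.107). S1pr1 is strongly expressed in endothelium. Of 10 endothelial marker genes 8 were below 2.34 log2 in both groups, among them Cdh5, Kdr and Tie1. The mean of the endothelial list read 1.82 and 1.95 log2 in wild-type cells, against 1.93 and 1.87 in knockout cells. Vwf was the only gene of that list bright enough to test and was not called. The part of endothelial cells in the S1pr1 values was not tested.

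S1pr2 encodes the receptor that often opposes the effects of S1pr1 on cell migration. Its signal read 6.86 and 6.62 log2 in wild-type cells, against 7.09 and 7.03 in knockout cells. Here the groups lay close, although both knockout arrays were above both wild-type arrays, with a difference of 0.32 (SE 0.123). Leaving out each array in turn gave 0.20 to 0.44.

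Among the LPA receptors, Lpar4 encodes a purinergic-like receptor whose gene lies on the X chromosome. Its signal read 7.89 and 7.72 log2 in wild-type cells, against 6.95 and 7.04 in knockout cells, with no overlap. The means were 7.80 ± 0.12 and 6.99 ± 0.06 log2 (SD, n = 2), a difference of -0.81 (SE 0.113), with a range of -0.89 to -0.72 on leaving out each array. Xist differed between the same arrays, by 0.73 log2.

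The 250 bases before the start of Lpar4 (RefSeq, GRCm38.p6, chrX:106920375-106920624, plus strand) are shown because Lpar4 had the largest negative difference of the group, with capitals for matches to the same motifs.
Lpar4: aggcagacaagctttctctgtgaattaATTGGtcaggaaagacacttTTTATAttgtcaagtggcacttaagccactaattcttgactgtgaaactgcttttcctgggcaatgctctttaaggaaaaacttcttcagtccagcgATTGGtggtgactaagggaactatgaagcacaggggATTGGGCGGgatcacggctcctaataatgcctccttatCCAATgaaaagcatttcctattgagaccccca
It held 4 matches to the CCAAT box, found in 33.8% of all windows, of which that from 70 to 66 bases before the start overlaps a GC box. It also held a TATA box match on the reverse strand, 203 to 198 bases before the start (12.4% of windows). With 3 CpG dinucleotides and 43.6% GC it had fewer of both than the S1pr3 window, which had 56.4% GC. Neither window had a match to the TEAD, AP-1 or TCF/LEF letters.

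Lpar1 encodes the most widely expressed LPA receptor, of the same family as the S1P receptors. Its signal read 4.53 and 4.59 log2 in wild-type cells, against 4.00 and 4.12 in knockout cells. The difference was -0.50 (SE 0.106), and the lowest wild-type array lay above the highest knockout array. Leaving out each array gave -0.56 to -0.45.

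Sphk1 and Sphk2 encode the kinases that make S1P, Sphk1 mainly near the plasma membrane and Sphk2 also in the nucleus and mitochondria. Sphk1 read 2.20 and 2.24 log2 in wild-type cells, against 2.87 and 2.71 in knockout cells. Its wild-type mean of 2.22 lay below the 2.34 set for dim genes, and it was tested only through its knockout signal, so no fold is given for its difference of 0.57 (SE 0.110). Sphk2 read 6.88 and 6.83 log2 in wild-type cells, against 6.46 and 6.69 in knockout cells. Its difference was -0.28 (SE 0.119) and ranged from -0.39 to -0.17 on leaving out each array, with the knockout arrays further apart than the wild-type arrays.

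Sgpl1 encodes the S1P lyase, which cleaves S1P irreversibly. Its signal read 7.67 and 7.59 log2 in wild-type cells, against 7.99 and 7.89 in knockout cells, a difference of 0.31 (SE 0.106). The direction was opposite to that of Sphk2 and the size was similar.

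**Figure D2:**
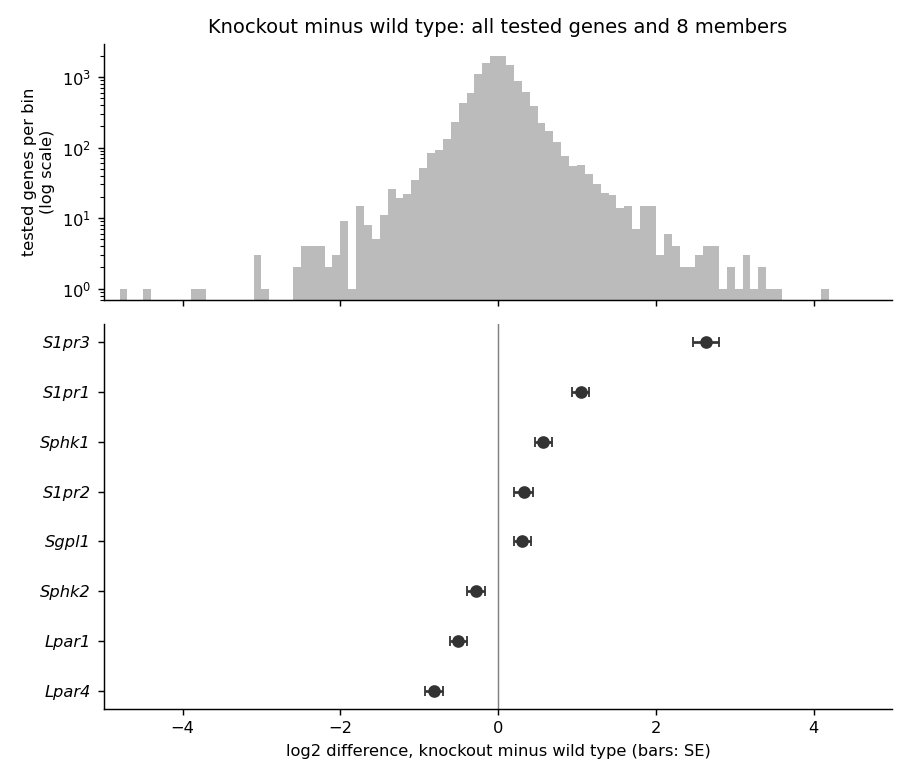
Log2 difference, knockout minus wild type, for all 12708 tested genes (upper panel, genes per bin of 0.1 log2 on a log axis) and for the 8 measured genes with their SE (lower panel, n = 2 per group). S1pr3 at 2.64 lies in the sparse right-hand tail, S1pr1 at 1.05 and Lpar4 at -0.81 lie on the shoulders, and S1pr2, Sgpl1 and Sphk2 lie within 0.4 of 0.

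In the limma fit over all tested genes (two-sided, adjusted by Benjamini and Hochberg, called below 0.05), 5 of the 8 genes passed the threshold, 3 higher (S1pr3, S1pr1 and Sphk1) and 2 lower (Lpar4 and Lpar1), where 11.3% of all tested genes were called in either direction, 6.2% higher and 5.12% lower. The rise of S1pr3 in this contrast chose the genes, and Sphk1 entered the fit only through its knockout signal, so that count is no test of the group and nothing is read from it. Groups did not overlap for any of the 8, beside 57.8% of all tested genes. Lpar4 was not called without knockout array 1, and Sphk1 and Lpar1 were not called when any single array was left out, nor was Lpar1 without the filter on dim genes. The number of all genes called fell from 1439 to 675 without knockout array 1 and to 897 without knockout array 2.

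The wider pathway was read from 83 other genes in 6 lists, of which 77 were measured and 63 were bright enough to test. Of these 63, 6 rose, 4 fell and 53 were not called by limma, so 15.9% were called, beside 11.3% of all tested genes. Their median difference was -0.06 log2. Leaving out wild-type array 2 or knockout array 2 left 3 higher calls, and the lower calls numbered 1 without knockout array 1 and 2 without knockout array 2.

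**Figure D3:**
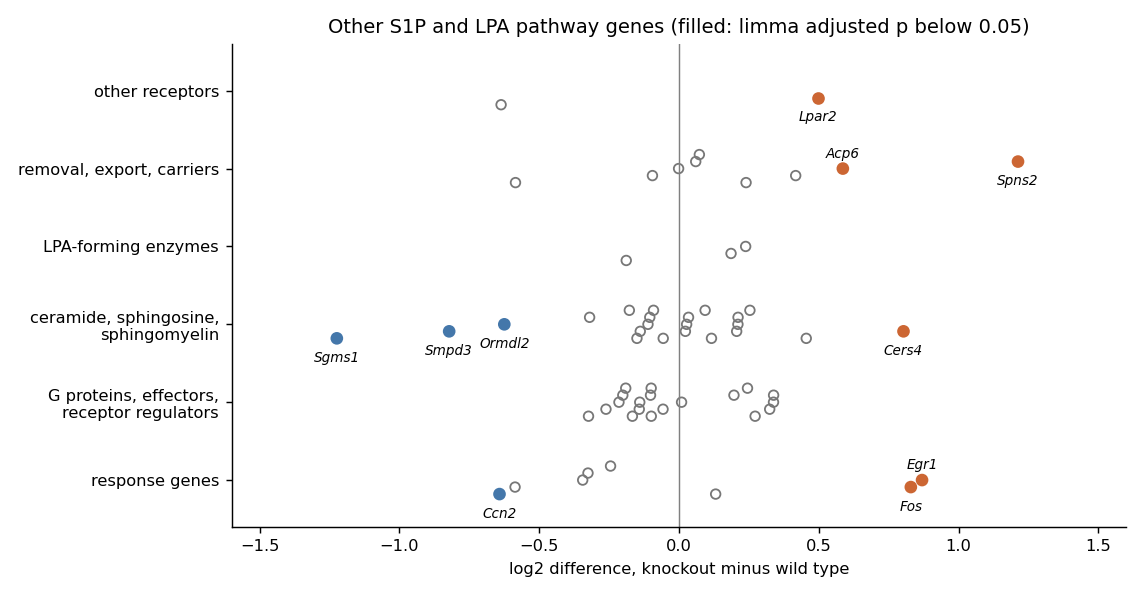
Log2 difference, knockout minus wild type, of the 63 tested other pathway genes, 1 point per gene, by list; filled points were called by limma (orange higher, blue lower), open points were not, and the vertical offset only separates points. Spns2 at 1.21 and Sgms1 at -1.22 are the outermost points, and the G protein list lies between -0.32 and 0.34 without a call.

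Among transporters and removal enzymes, 2 of 9 tested genes rose and 7 were not called. Spns2 encodes a transporter that exports S1P from cells. Its signal read 3.05 and 2.64 log2 in wild-type cells, against 4.07 and 4.05 in knockout cells. The wild-type mean of 2.85 lay near the 2.34 set for dim genes, and a stricter filter on dim genes left Spns2 untested. It rose by 1.21 log2 or 2.32-fold (SE 0.154; limma adjusted p = 0.00749, with 2 arrays in each group), without overlap of the groups. Spns2 was called in all 10 alternatives that tested it, with adjusted p from 0.00249 to 0.0208.

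The 250 bases before the start of Spns2 (RefSeq, GRCm38.p6, chr11:72475028-72475277, minus strand) are shown because Spns2 had the largest called rise in the wider pathway, with capitals for the matches.
Spns2: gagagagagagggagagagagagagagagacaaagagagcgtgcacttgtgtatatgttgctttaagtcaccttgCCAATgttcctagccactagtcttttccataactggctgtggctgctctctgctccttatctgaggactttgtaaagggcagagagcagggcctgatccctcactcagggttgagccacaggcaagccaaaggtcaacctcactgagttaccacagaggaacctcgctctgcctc
Its only match was a CCAAT box, 175 to 171 bases before the start, and it held 2 CpG dinucleotides. The windows of S1pr3 and Spns2 had no motif of the 6 in common.

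Acp6, a lysophosphatidic acid phosphatase gene, rose by 0.59 log2 (limma adjusted p = 0.0415). Its call was lost without wild-type array 1 (adjusted p = 0.0988), wild-type array 2 (0.105) or knockout array 2 (0.169), and with no filter on dim genes (0.0625), within a range of 0.0298 to 0.169 over the alternatives. Plpp1 and Plpp2, genes of lipid phosphate phosphatases that act on both S1P and LPA outside the cell, had differences of 0.06 and 0.42 log2 and were not called. Mfsd2b, another S1P transporter gene, named after its values were seen, was not called and went the other way from Spns2. Its signal read 3.03 and 2.62 log2 in wild-type cells, against 2.09 and 2.39 in knockout cells. The difference was -0.59 (limma unadjusted p = 0.0164), and the knockout mean of 2.24 lay below 2.34.

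Among the remaining receptors, S1pr4 and S1pr5 were too dim to test and Lpar5 was not measured. Lpar2 read 2.83 and 2.80 log2 in wild-type cells, against 3.20 and 3.42 in knockout cells, and rose by 0.50 log2 (limma adjusted p = 0.0496). That call held in 1 of 10 alternatives (adjusted p from 0.0483 to 0.219) and was lost on leaving out any array. Lpar3 read 3.40 and 2.76 log2 in wild-type cells, against 2.47 and 2.42 in knockout cells, a difference of -0.64 that was not called. The wild-type arrays of Lpar3 differed from each other as much as the groups did. The LPA receptor genes therefore did not all lie on the same side of 0. Of the LPA-forming enzymes 3 were tested and 0 called by limma, with 0 at an unadjusted p below 0.05. Agk, a mitochondrial lipid kinase gene, had a difference of 0.19 log2 and Gdpd1 of -0.19, and the groups overlapped for Gdpd1.

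In the metabolism of ceramide and sphingomyelin, from which sphingosine arises, 1 of 22 tested genes rose, 3 fell and 18 were not called. Sgms1, which encodes a sphingomyelin synthase that uses up ceramide, read 5.74 and 5.80 log2 in wild-type cells, against 4.71 and 4.38 in knockout cells. Its signal fell by 1.22 log2, with an SE of 0.139 (limma adjusted p = 0.00500, 2 arrays in each group), and it was called in all 11 alternatives, with adjusted p from 0.000266 to 0.0210. Smpd3, which encodes neutral sphingomyelinase and releases ceramide, fell by 0.82 log2 (limma adjusted p = 0.0118), from 3.73 and 3.74 to 2.79 and 3.03. Other genes of these classes, named after their values were seen, were not called, with differences of 0.12 for the synthase gene Sgms2, and of -0.14, 0.21 and 0.03 for the sphingomyelinase genes Smpd1, Smpd2 and Smpd4. Smpd3 was no longer called once knockout array 1 was left out (adjusted p = 0.0555, in a range from 0.00955 to 0.0555).

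Cers4, a ceramide synthase gene, rose by 0.80 log2 (limma adjusted p = 0.0309), from 5.91 and 5.52 to 6.41 and 6.63. The call was lost on leaving out any of wild-type array 2 (adjusted p = 0.0759), knockout array 1 (0.0526) and knockout array 2 (0.0980), in a range from 0.00527 to 0.0980. Ormdl2, a regulator of the enzyme that starts sphingolipid synthesis, fell by 0.63 log2 (limma adjusted p = 0.0155). That call was lost on leaving out either knockout array (adjusted p = 0.0871 without the first and 0.0623 without the second), in a range from 0.00220 to 0.0871. Sptlc1 and Sptlc2, which encode that enzyme's subunits, had differences of -0.11 and 0.03 log2 and were not called. The other tested ceramide synthase and Ormdl genes, named after their values were seen, were not called in the main fit. Cers2, Cers5 and Cers6 had differences of -0.15, -0.18 and 0.45 log2, and Ormdl1 and Ormdl3 of -0.10 and -0.06. A second, dimmer probe set of Cers2 had 0.37, and Cers6 was called in some alternatives, among them quantile normalization.

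Of 19 tested genes of G proteins, their effectors and receptor regulators, 0 were called by limma and the differences ran from -0.32 to 0.34 log2. At an unadjusted p below 0.05 there were 2, Gnaq and Plcb4 (named after their values were seen), and Gnaq was called with trend and robust eBayes (limma adjusted p = 0.0353). Gnai1 and Gnai2, which encode Gi subunits used by S1pr1, had differences of 0.24 and -0.06. Genes known to respond to S1P and LPA split: 2 of 8 tested rose, 1 fell and 5 were not called. At an unadjusted p below 0.05 there were 6, namely Egr1, Fos, Ccn1, Ccn2, Srf and Ptgs2. The immediate early genes Egr1 and Fos rose by 0.87 and 0.83 log2 (limma adjusted p = 0.00654 and 0.00776). Egr1 went from 6.29 and 6.42 to 7.21 and 7.24, and Fos from 3.48 and 3.60 to 4.39 and 4.34. Both were called in every alternative that tested them, Egr1 in 11 and Fos in 10, with adjusted p up to 0.0275 and 0.0395.

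Ccn2, a matricellular protein gene induced through YAP, fell by 0.64 log2 (limma adjusted p = 0.0155), with -0.26 at a second, dim probe set. The call was lost on leaving out any of wild-type array 2 (adjusted p = 0.0507), knockout array 1 (0.0584) and knockout array 2 (0.0765), and on averaging its probe sets (0.0621), in a range from 0.000350 to 0.0765. Ccn1 and Ankrd1, which respond to the same signals, had differences of -0.33 and -0.25 and were not called. Srf and Ptgs2, named after their values were seen, had differences of -0.34 and -0.59 and were not called in the main fit. Ptgs2 was called lower under the stricter filter (limma adjusted p = 0.0184) and with trend and robust eBayes (0.0179). These genes respond to many other signals, and lipid levels were not measured.

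Markers of other cells that carry these receptors were read in the same arrays. Of 9 pericyte and smooth muscle markers 7 were tested, of which Mcam rose by 0.69 log2 and Rgs5 fell by 1.07 log2. Acta2 was bright, with means of 11.56 log2 in wild type and 11.43 in knockout, and was not called. The list mean, in which opposite moves cancel, read 4.54 and 4.63 log2 in wild-type cells, against 4.45 and 4.58 in knockout cells. Of 9 macrophage and leukocyte markers 4 were below 2.34 log2 in both groups and 5 were tested, of which 0 were called by limma. At an unadjusted p below 0.05 there was 1, Lyz2, with a difference of -0.50 log2. The list averaged 2.72 and 2.60 log2 in wild-type cells, against 2.48 and 2.58 in knockout cells. Of the 6 measured lymphocyte markers 5 were below 2.34 in both groups. Of the 6 measured adipocyte markers 3 were below it and 3 were tested, of which 0 were called by limma or passed an unadjusted p of 0.05. Their part in the results was not tested.

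The genes nearest to S1pr3 in pattern were found by the Euclidean distance between log2 values centred on the mean of the 4 arrays. The 5 nearest were Etv1 (distance 0.235 log2), Angptl4 (0.247), Entpd3 (0.276), Pparg (0.353) and Olfml2a (0.359). Etv1 is an ETS transcription factor, Angptl4 a secreted regulator of lipoprotein lipase, Entpd3 an ectonucleotidase and Pparg the nuclear receptor of fat cell formation. Their differences were 2.80, 2.76, 2.63, 2.31 and 2.53 log2, beside 2.64 for S1pr3. With 4 arrays in 2 groups, the distance mostly measures how near the sizes of the differences are.

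**Figure D4:**
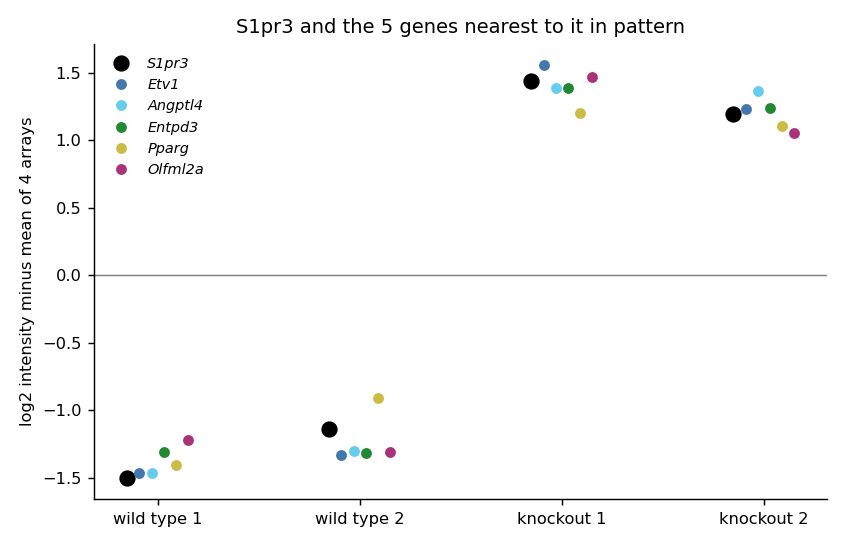
Log2 intensity minus the mean of the 4 arrays for S1pr3 (black) and the 5 genes nearest to it (colours), 1 point per gene and array, offset sideways to separate them. All 6 genes lie below 0 in both wild-type arrays and above 0 in both knockout arrays, and Pparg has the smallest gap, 2.31 log2.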

How the data were processed

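The deposited values were log2 intensities of 41345 probe sets on each of 4 Affymetrix arrays. Per the submitters' processing notes the authors used limma and oligo, without role or version; the normalization was not given in the sources used here, and the log2 scale was read from the values. The array medians ran from 2.32 to 2.37. Detection calls were not used, and the number of arrays limits the precision.

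Of the probe sets, 23521 had exactly 1 symbol, and 23328 of these matched RefSeq (GRCm38.p6) by Entrez identifier. Each of 22180 genes was represented by its brightest probe set on average, and the 12708 genes whose mean reached 2.34 log2, the median over all rows, were tested. The test was limma 3.58.1 under R 4.3.3 (lmFit, eBayes, two-sided, 2 residual degrees of freedom, no block), with Benjamini-Hochberg adjustment and calls below 0.05. The fit was tested on data simulated from its own variance model with independent noise. Such data cannot show whether the arrays of a group are technical repeats. The members and lists were chosen with earlier results of these data known. All members were named, then up to 6 called and up to 2 uncalled genes of each list, and the 5 genes nearest to S1pr3 without unnamed loci. Promoter windows came from RefSeq (8 of 10 members had an entry), cut to the 250 bases before the start. Alternatives were other filters on dim genes, a block for the replicate number, quantile normalization, median centring, eBayes with trend and robust, averaging the probe sets of a gene, every probe set in 1 fit, and leaving out each array.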

Additional observations from a re-analysis of the deposited data

How the results depend on the processing

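The 86 values of the 8 measured members under the alternatives all had the direction of the main value, which is no sign of stability: with 2 arrays a group and no overlap, leaving out an array cannot turn a sign or move a mean by 1 SD, and several settings leave the difference as it is. Over all genes, 1439 were called, and 218 with every probe set in 1 fit; leaving out an array gave 675 to 1144. Of the other pathway genes, 6 were called higher; 3 were under the stricter filter, which tests fewer genes, and 3 to 4 on leaving out an array. Lower calls numbered 4, and 7 with trend and robust eBayes, and 1 to 4 on leaving out an array; where an array is left out, the lone array of its group is assumed to vary like the other group. Same-numbered arrays share only a number: their deviations from the group means correlated at -0.04 across 12708 genes. With the replicate number as a block, which leaves fewer residual degrees of freedom, 1057 genes were called. Of the other pathway genes 3 were higher and 4 lower, and the cause of the drop was not tested. Sphk1, Lpar1, Lpar2, Acp6 and Cers4 were not called in that fit. Dim signal limits Sphk1, Lpar2, Lpar3 and Mfsd2b. It also limits Spns2 in wild type (mean 2.85 log2) and Smpd3 in knockout (mean 2.91 log2).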
